A study of Mus musculus with 28 samples.

Results

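The 9 genes described here encode carriers that bring organic anions, bile acids, carnitine, aromatic amino acids and vitamin C into cells, most of them at the blood-facing membrane of the hepatocyte. The members were taken by gene symbol, and every Affymetrix probe set annotated to a listed gene was kept, which gave 24 probe sets of 45037 in all. No member probe set was shared with another gene. Each gene is represented by its lead probe set, the one of highest mean over all 28 arrays, and 18193 genes of the series have such a probe set. Of the 24 probe sets, Slco1b2 holds 5, Slco2a1 and Slc16a10 hold 4 each, Slco2b1 holds 3, Slc10a1, Slc22a5 and Slc23a1 hold 2 each, and Slco1a4 and Slc22a7 hold 1 each.

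Liver RNA came from female C3H/HeN mice that were 5 weeks old at the start of 1 week of acclimation on a standard diet, after which the diets below began, with 1 mouse per array. The diets were Lieber's isocaloric liquid diet with ethanol plus ellagic acid (EA), with ethanol plus trans-resveratrol (RSV), with ethanol alone (EtOH), or with water in place of ethanol (control), so the EA, RSV and EtOH groups all received ethanol. By the study's diet formula, the control diet also held more maltose and dextrin than the ethanol diets. Ethanol and the lower carbohydrate content therefore cannot be told apart in comparisons with control. Each diet was given ad libitum for 1 week and then at 12 g per day for 4 weeks, with about 50 mg of polyphenol per kg of body weight per day in the EA and RSV groups. Each diet was fed to 3 mice deficient in the constitutive androstane receptor (CAR, gene Nr1i3), on the C3H/HeN background by the labels, and to 4 wild-type mice. How the receptor gene was disrupted is not given in the sources used here.

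Organic anion transporting polypeptides (the Slco genes) exchange bulky anions such as bilirubin, bile acids, steroid conjugates, prostaglandins, thyroid hormones and many drugs across the membrane without direct use of ATP. Slc10a1 encodes the sodium taurocholate cotransporting polypeptide, the main sodium-dependent route by which hepatocytes recover conjugated bile acids from portal blood. Slc22a7 (organic anion transporter Oat2) and Slc22a5 (the carnitine carrier Octn2) belong to the organic ion carriers of the Slc22 family. Slc16a10 carries aromatic amino acids and Slc23a1 carries ascorbate together with sodium. CAR is a nuclear receptor that raises transcription of drug-metabolising enzymes and of some carriers when xenobiotics are present.

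The values are those of Distribution Free Weighting (DFW), a log2 summary in which probes count by their variability across arrays. Because DFW also stretches or shrinks the variation of a probe set, a difference below is one of DFW values and no calibrated log2 fold change. The values of CAR-deficient and of wild-type mice lie on different scales, with medians near 6.89 and 6.69, and were treated as summarised apart. Levels are therefore not compared between the genotypes, and a difference between their responses was not tested. A probe set is called compressed when its standard deviation over the arrays of a genotype was at most 0.01, which held for 79.3% of probe sets in CAR-deficient mice and 85.3% in wild-type mice. Of the 24 member probe sets, 7 were compressed in CAR-deficient mice and 10 in wild-type mice, and the 9 lead probe sets were compressed in neither genotype. Slc10a1 had the highest lead value of the 9 in wild-type mice, with a mean of 12.90 (above 99.7% of probe sets), and Slc16a10 the lowest, with a mean of 8.50 (above 87.5%). Probe sets differ in their response to RNA, so this order is one of signals and not of RNA amounts.

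The samples are whole liver, so fewer cells of a type and less RNA per cell cannot be told apart. The 6 hepatocyte markers averaged 16.19 to 17.07 on the arrays of CAR-deficient mice and 13.55 to 13.90 on those of wild-type mice, and the 4 measured bile duct markers stayed near 6.80 and 6.68 with compressed probe sets. The marker counts that follow are calls at a limma adjusted p under 0.05, beside 14.2% of all probe sets in EA, 19.7% in RSV and 5.55% in EtOH against control. In wild-type mice 3 of the 6 hepatocyte, 2 of the 9 Kupffer cell, 3 of the 8 endothelium and 2 of the 6 stellate cell markers were compressed. A call of a compressed marker carries no usable size. Most of all probe sets were compressed, so the shares above are a low reference for the uncompressed markers. A limma fit of the uncompressed probe sets alone called 51.7% of them in EA, 52.9% in RSV and 26.7% in EtOH against control. The markers were not counted in that fit. Of the hepatocyte markers, 1 was lower in EA, 1 higher in RSV and 1 lower in EtOH. Of the 9 Kupffer cell markers, 8 were lower in EA, 7 in RSV and 7 in EtOH than in control livers of wild-type mice. Of 8 sinusoidal endothelium markers 4 were higher in EA, 1 was higher and 1 lower in RSV, and 1 was higher and 1 lower in EtOH than in control livers of wild-type mice. Of 6 stellate cell markers 2 were higher in EA, 3 in RSV and 0 in EtOH than in control livers. EtOH replicate 1 of the CAR-deficient mice stood farthest from its own diet, with a mean Pearson r of 0.984 against 0.989 to 0.998 for all other arrays. The Nr1i3 probe set read 8.55 to 9.49 in CAR-deficient mice and 8.96 to 10.10 in wild-type mice. By limma it was called higher in EA livers (9.75 to 10.10) than in EtOH livers (8.96 to 9.68) of wild-type mice, beside 2.37% of all probe sets. Whether that probe set lies in the disrupted part of the gene is not known, so it checks nothing about the genotype. Cyp2b10, a cytochrome P450 that CAR is known to induce, was higher in EtOH than in control livers by 4.05 in wild-type mice (limma adjusted p = 0.000529), and by 2.30 in CAR-deficient mice, where the difference did not pass (limma adjusted p = 0.187) and replicate 1 read 10.15 against 7.20 and 8.09 in the other EtOH mice.

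Diets were compared within a genotype by limma, with all 4 diets in 1 fit, and a probe set was called at an adjusted p under 0.05. In wild-type mice the carriers that differed from the control diet were Slco2b1, higher on EA and on RSV, Slc22a7, lower on RSV and on EtOH, and Slco2a1, higher on EtOH. In EA against control 1 of the 9 lead probe sets was called, beside 14.2% of all probe sets. In RSV against control 2 of 9 were called, beside 19.7%. In EtOH against control 2 of 9 were called, beside 5.55%, a share that was 33.8% after quantile normalization with the same count of members. All 9 lead probe sets were uncompressed, unlike most probe sets. A limma fit of the uncompressed probe sets alone called 3 of 9 in EA, 4 in RSV and 2 in EtOH against control, beside 51.7%, 52.9% and 26.7% of those tested. No member was called in EA against EtOH (2.37% of all probe sets), RSV against EtOH (0.364%) or EA against RSV (0.0244%), although 2, 2 and 1 of the 9 had an unadjusted p under 0.05 in limma, beside 15%, 14.7% and 8.78% of all probe sets. The rank product called 4, 5 and 1 of the 9 in these comparisons, beside 5.6%, 4.39% and 3.32% of all probe sets and 38%, 29.8% and 22.6% of the uncompressed ones, to which every lead probe set of the carriers belongs. The 9 members are too few for these shares to set them apart from the other probe sets, and the 3 comparisons with control share the control mice.

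Counted by whether the mice of the diets overlapped, 4 of the 9 members were wholly apart in EA against control of wild-type mice (Slco2b1, Slc22a5, Slc22a7 and Slc23a1), beside 22.5% of all probe sets. In RSV against control 1 was apart (Slc22a7, beside 22.2%), and in EtOH against control 2 were (Slco2a1 and Slc22a7, beside 12.5%). Among the diets with ethanol, Slco2b1 alone was apart in EA against EtOH (9.45%), none in RSV against EtOH (5.96%) and Slc22a5 alone in EA against RSV (5.1%). These shares lie on both sides of those of all probe sets.

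**Figure D1:**
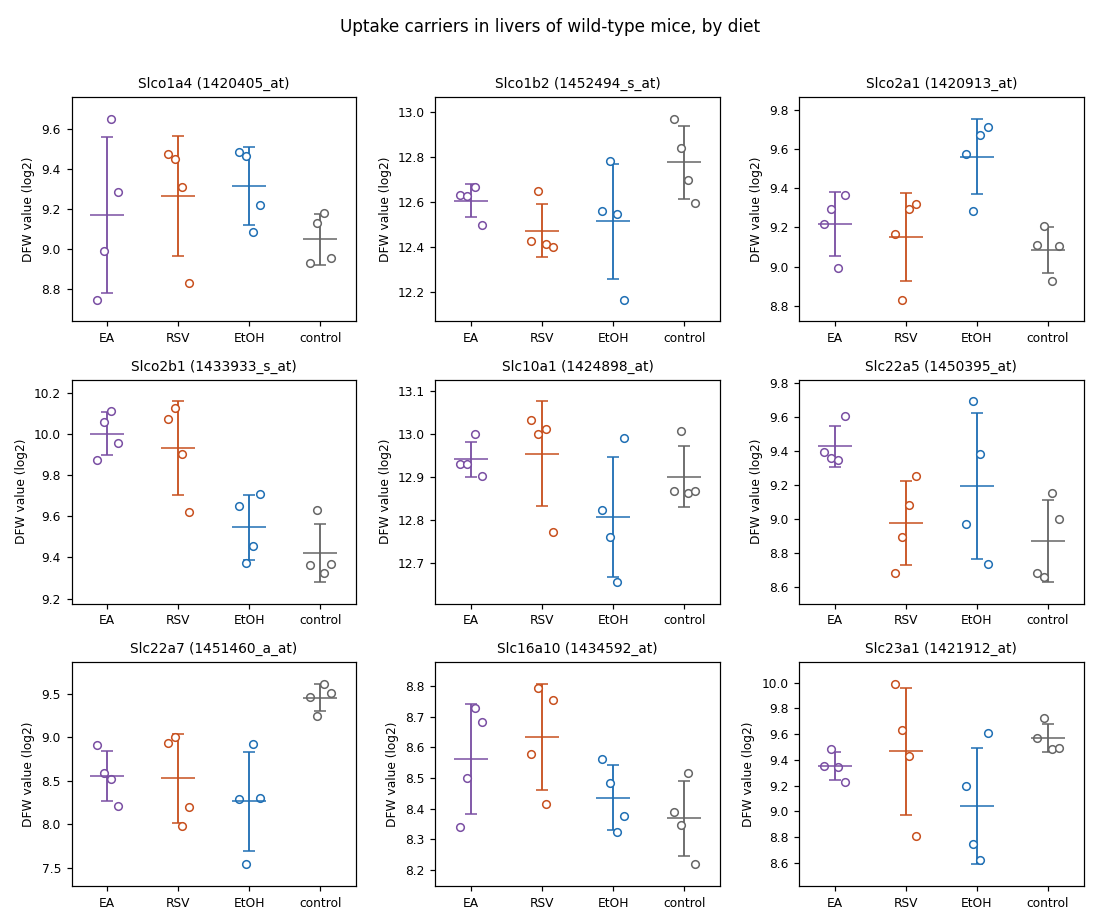
DFW values (log2, vertical axes, a separate range for each gene) of the lead probe set of each carrier on the 16 arrays of wild-type mice, by diet; circles are single mice, bars the mean and SD, n = 4 per diet. Slco2b1 lies at 9.88 to 10.11 on EA, above every control mouse, and Slc22a7 at 9.24 to 9.61 on the control diet, above every mouse of the other diets.

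In CAR-deficient mice no member was called in EA against control (0.18% of all probe sets called), RSV against control (0.06%), EtOH against control (0.344%), EA against EtOH (0%), RSV against EtOH (0%) or EA against RSV (0%). In the same order, 1, 1, 3, 2, 2 and 0 of the 9 members had an unadjusted p under 0.05 in limma, beside 11.7%, 10.3%, 12.4%, 8.5%, 5.46% and 2.98% of all probe sets. The rank product called 2, 3, 3, 2, 0 and 0, beside 2.89%, 2.08%, 1.86%, 0.555%, 0.162% and 0.0911% of all probe sets and 14%, 10.1%, 9.01%, 2.69%, 0.785% and 0.441% of the uncompressed ones. With 3 mice per diet the intervals were wide, and a member that missed the threshold is not thereby shown to be level between diets. The mice did not overlap for 2 members in EA against control (Slc22a5 and Slc16a10, beside 21.7% of all probe sets), 4 in RSV against control (Slco1a4, Slco2a1, Slc22a5 and Slc22a7, 17.1%) and 3 in EtOH against control (Slco1a4, Slco2a1 and Slc22a7, 19%). They did not overlap for 3 in EA against EtOH (Slco1a4, Slco2a1 and Slc16a10, 13.5%), for Slco1a4 alone in RSV against EtOH (7.92%) and for none in EA against RSV (6.37%).

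Slco2b1 (Oatp2b1; chr7:99657804-99711340 in GRCm38.p6) encodes a broadly expressed anion carrier for steroid sulfates and many drugs. Its lead probe set read 9.88, 10.06, 10.11 and 9.96 in EA livers and 10.07, 10.13, 9.90 and 9.62 in RSV livers of wild-type mice. It read 9.65, 9.37, 9.45 and 9.71 in EtOH livers and 9.36, 9.63, 9.32 and 9.37 in control livers. The EA values lay above every EtOH and control value, while the lowest RSV mouse lay just below the highest control mouse.

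Slco2b1 was higher by 0.58 in EA than in control livers (95% CI 0.33 to 0.83, limma adjusted p = 0.00543) and by 0.51 in RSV than in control livers (0.26 to 0.76, limma adjusted p = 0.00953). EtOH and control livers differed by 0.13 (-0.12 to 0.37, limma adjusted p = 0.568). Against EtOH, EA livers were higher by 0.45 (0.21 to 0.70, limma adjusted p = 0.0603) and RSV livers by 0.38 (0.14 to 0.63, limma adjusted p = 0.153), neither of which passed. EA and RSV livers differed by 0.07 (-0.18 to 0.32).

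The second uncompressed probe set of Slco2b1, 1454777_at, read 8.99, 9.12, 9.15 and 9.11 in EA livers and 9.14, 9.21, 9.06 and 8.85 in RSV livers. It read 8.85, 8.61, 8.74 and 8.91 in EtOH livers and 8.60, 8.87, 8.61 and 8.66 in control livers. This probe set was higher by 0.40 in EA (limma adjusted p = 0.00969) and by 0.38 in RSV (limma adjusted p = 0.0118) than in control livers. Both probe sets come from the same hybridisations, so they are no separate replicates of the diets. The third, 1458171_at, was compressed at 6.82. The whole lists of endothelium and stellate cell markers, some of which were higher on the same diets, had mean levels of 8.73 to 8.83 and 8.48 to 8.55 in EA livers, 8.67 to 8.71 and 8.46 to 8.58 in RSV livers, and 8.56 to 8.73 and 8.45 to 8.55 in control livers. Their part in the Slco2b1 values was not tested. The call of Slco2b1 on EA and on RSV against control held with each of the 8 mice compared left out in turn, at adjusted p of 0.00569 to 0.0195 on EA and 0.00257 to 0.0317 on RSV. A fit of RSV and control alone gave an adjusted p of 0.0516.

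RefSeq annotates 3 transcription starts for Slco2b1, and the array cannot say which of them gave the RNA. Because this carrier had the most stable call, the 3 promoter windows, from 250 bases before to 50 bases after each start on the minus strand, are shown from the RefSeq table of GRCm38.p6. Capitals mark AGGTCA or AGTTCA (half-sites of nuclear receptors) or GTTAAT (a half-site of hepatocyte nuclear factor 1) on either strand.
Slco2b1 start 1, chr7:99711291-99711590: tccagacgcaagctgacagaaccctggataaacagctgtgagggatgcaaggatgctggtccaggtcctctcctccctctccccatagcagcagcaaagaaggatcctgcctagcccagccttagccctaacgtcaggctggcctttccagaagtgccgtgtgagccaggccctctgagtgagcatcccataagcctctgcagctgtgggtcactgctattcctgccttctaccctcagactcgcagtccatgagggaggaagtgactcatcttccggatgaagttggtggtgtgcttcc
Slco2b1 start 2, chr7:99706793-99707092: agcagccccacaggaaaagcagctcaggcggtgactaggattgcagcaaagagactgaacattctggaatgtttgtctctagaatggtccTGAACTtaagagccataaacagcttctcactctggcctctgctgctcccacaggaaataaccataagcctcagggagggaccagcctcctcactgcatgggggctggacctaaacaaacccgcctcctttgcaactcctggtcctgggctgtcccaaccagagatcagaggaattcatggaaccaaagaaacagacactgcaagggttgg
Slco2b1 start 3, chr7:99695760-99696059: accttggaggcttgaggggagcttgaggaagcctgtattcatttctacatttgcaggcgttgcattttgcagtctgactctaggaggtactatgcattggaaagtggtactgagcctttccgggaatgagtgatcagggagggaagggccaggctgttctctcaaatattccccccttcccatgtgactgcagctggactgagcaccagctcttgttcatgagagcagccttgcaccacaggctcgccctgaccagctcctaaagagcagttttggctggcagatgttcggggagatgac
The window of start 2 held 1 match, TGAACT, which is AGTTCA on the other strand, and the windows of starts 1 and 3 held none. Of 32851 such windows in the table, 16.3% held AGGTCA, 14% held AGTTCA and 7.1% held GTTAAT. Windows of 7 of the 9 members were found, and AGGTCA stood in those of Slco1b2 and Slc10a1, AGTTCA in those of Slco1b2 and Slco2b1, and GTTAAT in those of Slco1b2 and Slc16a10. A match is a string of letters and not a shown site.

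In CAR-deficient mice Slco2b1 read 9.95, 10.77 and 10.84 in EA livers and 10.75, 10.63 and 9.87 in RSV livers. It read 9.82, 10.23 and 10.49 in EtOH livers and 10.02, 9.93 and 10.45 in control livers. All 4 diets overlapped. EA livers exceeded control livers by 0.39 (-0.36 to 1.13) and RSV livers by 0.28 (-0.46 to 1.03), with limma adjusted p of 0.739 and 0.853. These intervals hold both 0 and the size seen in wild-type mice, on a scale that was set apart.

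**Figure D2:**
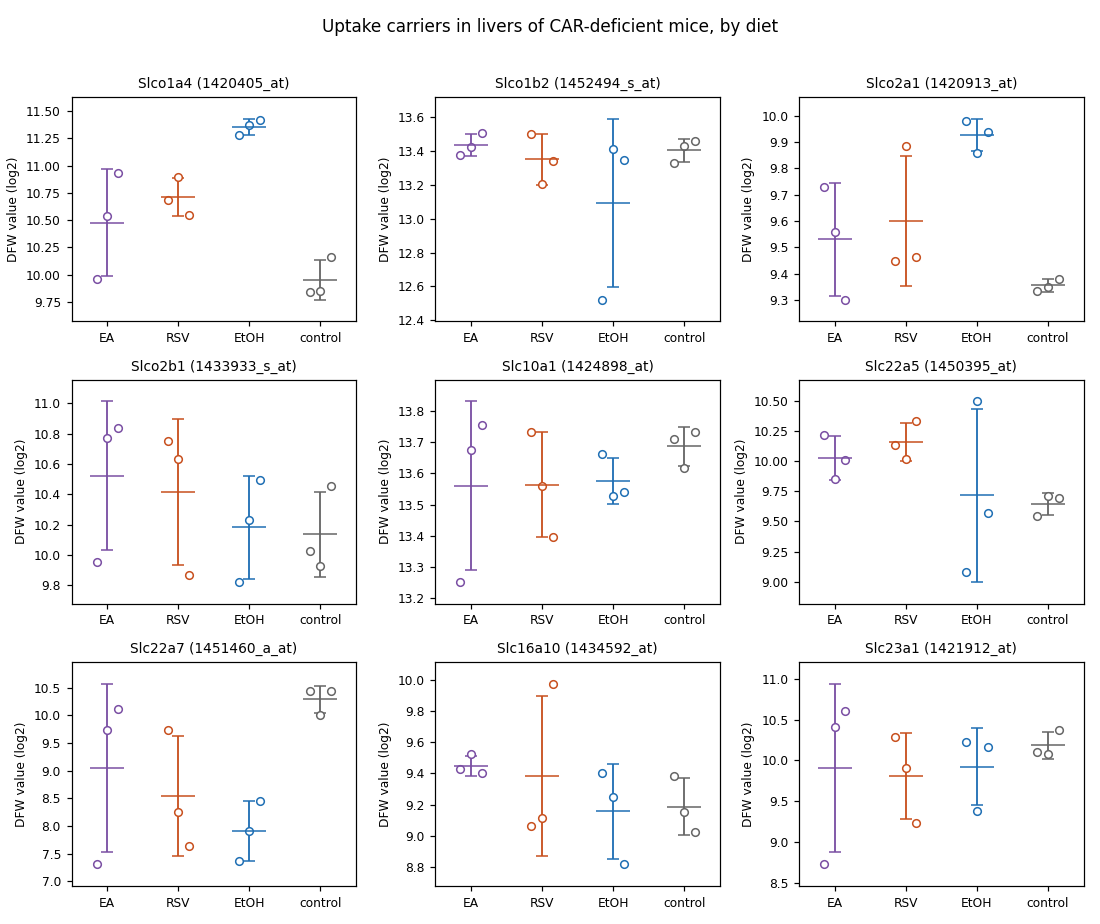
DFW values (log2, vertical axes, a separate range for each gene) of the lead probe set of each carrier on the 12 arrays of CAR-deficient mice, by diet; circles are single mice, bars the mean and SD, n = 3 per diet. Slco1a4 lies at 11.28 to 11.42 on EtOH and 9.84 to 10.16 on the control diet, and Slc22a7 spans 7.31 to 10.11 on EA.

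Slco2a1 (chr9:103007061-103096002) encodes the prostaglandin transporter, which is also known from endothelial cells. In wild-type mice its lead probe set read 9.22, 9.29, 8.99 and 9.37 in EA livers and 9.16, 8.83, 9.29 and 9.32 in RSV livers. It read 9.58, 9.28, 9.67 and 9.71 in EtOH livers and 9.11, 9.21, 8.93 and 9.10 in control livers. The EtOH values lay above every control value, and EA and RSV livers overlapped with both.

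Slco2a1 was higher by 0.47 in EtOH than in control livers (0.21 to 0.74, limma adjusted p = 0.0445). EA livers differed from control livers by 0.13 and RSV livers by 0.07 (limma adjusted p = 0.531 and 0.742). EA livers differed from EtOH livers by -0.34 and RSV livers by -0.41, and neither difference passed (limma adjusted p = 0.188 and 0.16). The EtOH call stood just under the threshold and was lost with each of 7 of the 8 mice left out in turn (adjusted p 0.0658 to 0.114) and kept only without EtOH replicate 3 (0.0231). The mean level of the sinusoidal endothelium markers was 8.64 to 8.68 in EtOH and 8.56 to 8.73 in control livers. The other 3 probe sets of Slco2a1 were compressed, with means of 6.901 to 7.16. Of these, 1444242_at was called higher in EtOH than in control livers (limma adjusted p = 0.045), by 0.000341, too small on this scale to read as a level.

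In CAR-deficient mice Slco2a1 read 9.73, 9.56 and 9.30 in EA livers and 9.45, 9.89 and 9.46 in RSV livers. It read 9.98, 9.86 and 9.94 in EtOH livers and 9.34, 9.35 and 9.38 in control livers. The EtOH and control values did not overlap. The difference of 0.57 (0.27 to 0.88) did not pass over all probe sets (limma adjusted p = 0.142).

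Slco1a4 (Oatp1a4; chr6:141805438-141856284) encodes a carrier of bile acids, steroid conjugates and cardiac glycosides, and its transcription in mouse liver is known to respond to xenobiotic receptors. In CAR-deficient mice it read 9.96, 10.54 and 10.93 in EA livers and 10.68, 10.90 and 10.55 in RSV livers. It read 11.28, 11.37 and 11.42 in EtOH livers and 9.84, 9.85 and 10.16 in control livers. Every EtOH mouse lay above every mouse of the other 3 diets, and every RSV mouse above every control mouse.

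The Slco1a4 difference of 1.40 between EtOH and control livers of CAR-deficient mice (0.90 to 1.91) lay just outside the threshold (limma adjusted p = 0.0519). With only probe sets above the median level it passed (adjusted p = 0.0406), as it did by rank product, and with the replicate number as a block it did not (0.115). Without EtOH replicate 1, the array that stood apart, the difference was 1.44 (adjusted p = 0.107). EA livers exceeded control livers by 0.53 and RSV livers by 0.76, and they differed from EtOH livers by -0.88 and -0.64, with limma adjusted p of 0.268 to 0.877 over these 4 comparisons.

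In wild-type mice Slco1a4 read 8.75, 8.99, 9.65 and 9.29 in EA livers and 9.47, 9.45, 9.31 and 8.83 in RSV livers. It read 9.49, 9.47, 9.09 and 9.22 in EtOH livers and 8.93, 9.13, 9.18 and 8.95 in control livers. The 4 diets overlapped, and EtOH livers differed from control livers by 0.27 (-0.14 to 0.67, limma adjusted p = 0.447). Its promoter window on the minus strand of chr6:141856171-141856470 held none of the 3 motifs. The window is shown because this gene had the largest difference upward among the members in CAR-deficient mice, in EtOH against control, which was not called.
Slco1a4: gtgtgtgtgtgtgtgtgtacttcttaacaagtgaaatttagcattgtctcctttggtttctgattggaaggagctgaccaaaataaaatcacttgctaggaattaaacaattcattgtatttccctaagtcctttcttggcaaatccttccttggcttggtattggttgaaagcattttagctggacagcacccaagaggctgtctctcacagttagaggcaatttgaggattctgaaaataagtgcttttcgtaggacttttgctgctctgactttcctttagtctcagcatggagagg

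Slco1b2 (chr6:141629452-141686646) encodes the liver-specific Oatp1b2, which takes up bilirubin, bile acids and statins. In wild-type mice it read 12.63, 12.63, 12.67 and 12.50 in EA livers and 12.43, 12.65, 12.41 and 12.40 in RSV livers. It read 12.56, 12.78, 12.55 and 12.16 in EtOH livers and 12.97, 12.84, 12.70 and 12.60 in control livers. The 4 diets overlapped. Against control, EA livers differed by -0.17 (95% CI -0.42 to 0.08, limma adjusted p = 0.37), RSV livers by -0.30 (-0.56 to -0.05, 0.0837) and EtOH livers by -0.26 (-0.51 to -0.01, 0.215).

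Its other uncompressed probe sets were also below control on average. Against control, 1449394_at differed by -0.13 in EA, -0.19 in RSV and -0.24 in EtOH livers, with limma adjusted p of 0.246, 0.0646 and 0.0575, and 1427826_a_at by -0.18, -0.44 and -0.28, with 0.557, 0.103 and 0.399. The compressed 1427825_at was called lower on EA, RSV and EtOH, with differences of -0.000728, -0.000688 and -0.000948, too small on this scale to read as a level. In CAR-deficient mice the lead probe set stayed between 13.21 and 13.51 on 11 of the 12 arrays and read 12.52 in EtOH replicate 1. EtOH and control livers there differed by -0.31 (-0.79 to 0.17, limma adjusted p = 0.619).

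Slc10a1 (chr12:80953185-80968705) had the smallest SD within diets of the 9, 0.166 in CAR-deficient mice and 0.101 in wild-type mice. Slco2a1 was close to it in CAR-deficient mice, at 0.168. Because DFW stretches or shrinks the variation of a probe set, this order is one of DFW values only. In wild-type mice Slc10a1 read 12.93, 12.93, 13.00 and 12.90 in EA livers and 13.03, 13.00, 13.01 and 12.77 in RSV livers. It read 12.82, 12.76, 12.66 and 12.99 in EtOH livers and 12.87, 13.01, 12.86 and 12.87 in control livers. The diets overlapped and no difference between them was called. Against control the differences were 0.04 in EA livers (-0.11 to 0.19), 0.05 in RSV livers (-0.10 to 0.21) and -0.09 in EtOH livers (-0.25 to 0.06). In CAR-deficient mice they were -0.13 (-0.43 to 0.18), -0.12 (-0.43 to 0.18) and -0.11 (-0.41 to 0.19).

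Slc22a7 (chr17:46432185-46438477) encodes Oat2, a carrier of small organic anions and nucleobase derivatives such as cyclic GMP. In wild-type mice its only probe set read 8.91, 8.58, 8.52 and 8.22 in EA livers and 8.93, 9.0003, 7.98 and 8.20 in RSV livers. It read 8.29, 7.55, 8.93 and 8.31 in EtOH livers and 9.46, 9.24, 9.61 and 9.50 in control livers. Every mouse on ethanol, with or without a polyphenol, lay below every control mouse.

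Against control, Slc22a7 was lower in RSV livers (difference -0.92, -1.55 to -0.30, limma adjusted p = 0.0409) and in EtOH livers (difference -1.19, -1.81 to -0.56, limma adjusted p = 0.034). In EA livers the difference was -0.90 (-1.52 to -0.27) and did not pass (limma adjusted p = 0.0561). EA livers differed from EtOH livers by 0.29 (-0.33 to 0.92) and RSV livers by 0.26 (-0.36 to 0.89), with limma adjusted p of 0.733 and 0.719. With a mouse left out in turn, the EtOH call held in 1 of 8 fits, that without EtOH replicate 4 (adjusted p = 0.0198, against 0.0593 to 0.0852 in the others). The RSV call held in 2 of 8, those without RSV replicate 1 (0.0441) and replicate 2 (0.0377), against 0.0556 to 0.0934.

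In CAR-deficient mice Slc22a7 read 7.31, 9.74 and 10.11 in EA livers and 9.74, 8.25 and 7.63 in RSV livers. It read 7.37, 7.91 and 8.46 in EtOH livers and 10.43, 10.00 and 10.43 in control livers. Every RSV and EtOH mouse lay below every control mouse, and EA replicate 1 differed by -2.61 from the mean of the other EA mice. EtOH livers differed from control livers by -2.38 (-4.17 to -0.59), RSV livers by -1.75 (-3.54 to 0.04) and EA livers by -1.24 (-3.02 to 0.55), and none passed (limma adjusted p = 0.272, 0.498 and 0.619). Its SD within diets on the DFW scale, 0.98 in CAR-deficient mice and 0.414 in wild-type mice, was the largest of the 9 members in both genotypes. The study lists Slc22a7, with Slc16a10 and Slc23a1, among transport genes lowered by ethanol and raised again by either polyphenol in wild-type mice. It marks Slc22a7 as similarly regulated in CAR-deficient mice. By limma here, no lead probe set of these genes was called in EA or RSV against EtOH in either genotype. In CAR-deficient mice Slc22a7 had means of 9.05 in EA, 8.54 in RSV and 7.91 in EtOH livers, with overlapping mice. The rank product run here called 4 of the 9 members in EA against EtOH of wild-type mice, beside 5.6% of all probe sets. In RSV against EtOH it called 5, beside 4.39%. These counts are not broken down by gene here. Limma and the study's list thus rest on unlike methods. The study drew its list from these same livers, by rank product after another normalization. The place of Slc22a7 in the list is therefore no independent evidence of a direction. The probe set listed there for Slc16a10 is not annotated to that gene in the table used here and is not among its 4 probe sets.

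**Figure D3:**
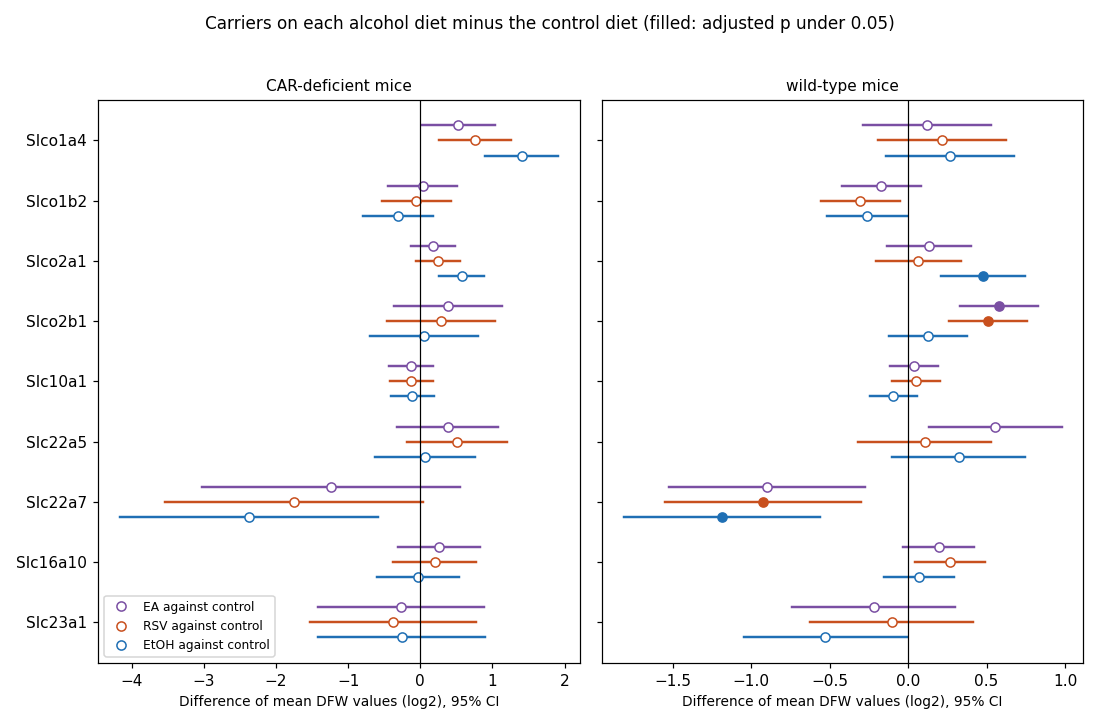
Difference of mean DFW values (log2, horizontal axes, which differ between the panels) between each ethanol diet and the control diet for the 9 carriers, in CAR-deficient mice at left and wild-type mice at right; points are limma estimates, lines their 95% CI, and filled points passed an adjusted p of 0.05. The 5 filled points are all in wild-type mice: Slco2a1 on EtOH, Slco2b1 on EA and RSV, and Slc22a7 on RSV and EtOH.

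Slc22a5 (chr11:53864542-53891796) encodes the sodium-dependent carnitine carrier that supplies fatty acid oxidation. In wild-type mice it read 9.40, 9.36, 9.35 and 9.61 in EA livers and 8.68, 8.89, 9.08 and 9.25 in RSV livers. It read 8.97, 9.69, 9.38 and 8.73 in EtOH livers and 8.68, 8.66, 9.15 and 8.999 in control livers. The EA values lay above all RSV and all control values, and the EtOH values spanned nearly the whole range. EA livers exceeded control livers by 0.55 (0.13 to 0.98, limma adjusted p = 0.0785). The difference of EA from RSV livers was 0.45 (0.03 to 0.87, limma adjusted p = 0.555), and that of RSV from control livers was 0.11 (-0.32 to 0.53, limma adjusted p = 0.737). Over all probe sets, residuals of mice of the same number in EA and control correlated (0.157 to 0.568). With that number as a block the Slc22a5 difference of EA from control passed (limma adjusted p = 0.0142). This made 2 members called there in place of 1. The Slc22a5 values themselves did not all pair in this way. Replicate 3 differed by -0.11 from the other EA mice and by 0.37 from the other control mice. In CAR-deficient mice EA livers exceeded control livers by 0.38 (-0.32 to 1.08) and RSV livers by 0.51 (-0.19 to 1.21), EtOH livers ran from 9.08 to 10.50, and none was called.

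Slc16a10 (Tat1; chr10:40033532-40142270) is represented by 2 uncompressed probe sets in wild-type mice. The lead probe set read 8.34, 8.50, 8.73 and 8.68 in EA livers and 8.58, 8.79, 8.42 and 8.75 in RSV livers. It read 8.56, 8.48, 8.32 and 8.38 in EtOH livers and 8.39, 8.35, 8.52 and 8.22 in control livers, and the diets overlapped. RSV livers exceeded control livers by 0.27 (0.04 to 0.49, limma adjusted p = 0.0868). The other, 1436368_at, was higher by 0.41 in RSV than in control livers (limma adjusted p = 0.0413), so the call depends on which probe set stands for the gene. On 1436368_at the EtOH values (8.19 to 8.48) also lay above every control value (8.01 to 8.17), a difference that was not called. In CAR-deficient mice the 12 values of the lead probe set ran from 8.82 to 9.97, and the differences from control were 0.26 on EA, 0.20 on RSV and -0.03 on EtOH, none of them called.

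Slc23a1, the sodium-dependent ascorbate carrier Svct1, was called in no comparison. In wild-type mice it read 9.35, 9.49, 9.34 and 9.23 in EA livers and 9.99, 9.63, 9.43 and 8.81 in RSV livers. It read 9.20, 8.74, 8.62 and 9.61 in EtOH livers and 9.57, 9.73, 9.49 and 9.49 in control livers. Every EA mouse lay below every control mouse, by little, with a difference of -0.22 (-0.74 to 0.30, limma adjusted p = 0.599). Of the EtOH mice, 3 lay below every control mouse and replicate 5 among them, and the difference of -0.53 (-1.05 to -0.01) did not pass (limma adjusted p = 0.225). EA livers differed from EtOH livers by 0.31 (-0.21 to 0.83) and RSV livers by 0.42 (-0.10 to 0.94), with limma adjusted p of 0.632 and 0.435. In CAR-deficient mice the differences from control were -0.27 on EA, -0.38 on RSV and -0.26 on EtOH, and EA replicate 1 read 8.73 against 10.41 and 10.60 in the other EA mice.

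In CAR-deficient livers, EA replicate 1 had the lowest value of its diet for 6 of the 9 members, and RSV replicate 3 and EtOH replicate 1 for 5 each. EA replicate 3 and control replicate 3 had the highest value of their diet for 6 of the 9 each. In EA replicate 1, Slc23a1 differed by -1.78 and Slco2b1 by -0.85 from the mean of the other EA mice, and in RSV replicate 3 they differed by -0.86 and -0.83 from the other RSV mice. The residual SD over all probe sets was 0.106 on EA replicate 1 and 0.137 on RSV replicate 3, against 0.049 to 0.11 on the remaining arrays of CAR-deficient mice other than EtOH replicate 1, at 0.165. The part of these arrays in the other carrier values was not tested.

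**Figure D4:**
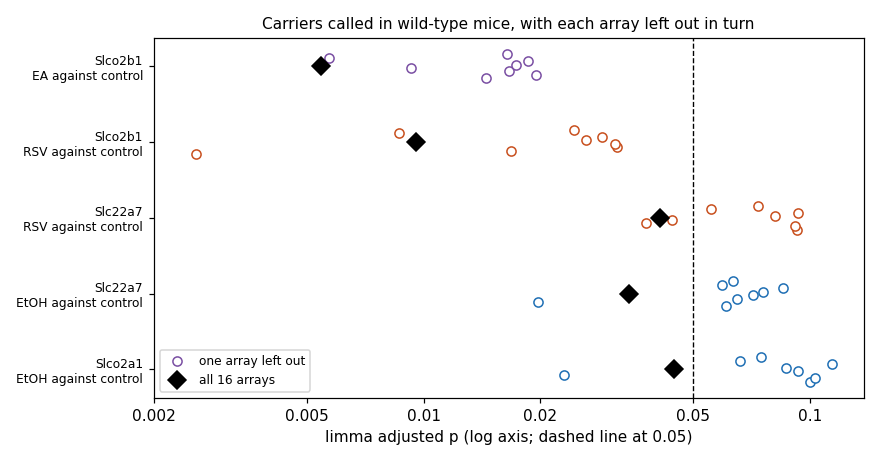
Adjusted p of limma (horizontal, log axis, dashed line at 0.05) for the 5 calls of carriers in wild-type mice, with all 16 arrays (black diamonds) and with each of the 8 arrays of the compared diets left out in turn (circles). For Slco2b1 all 16 circles lie under 0.05, and for Slc22a7 and Slco2a1 most lie above it.

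Among related carriers, counted by their lead probe sets in EtOH against control of wild-type mice (5.55% of all probe sets called), Slco1a1 was the 1 gene called of 8 other Slco genes, of which 7 were compressed. Slco1a1, an anion carrier known to be more active in male than in female mouse liver, read 11.12, 10.78, 11.38 and 11.07 in EtOH livers and 11.99, 11.86, 11.74 and 11.72 in control livers, a difference of -0.74 (limma adjusted p = 0.0205). In CAR-deficient mice it read 7.25, 7.06 and 6.76 in EtOH livers and 12.18, 12.43 and 12.38 in control livers, a difference of -5.31 (limma adjusted p = 0.0293). EA livers there read 8.55, 9.86 and 9.51 and RSV livers 9.99, 8.88 and 6.94, below every control mouse, with differences from control that did not pass (limma adjusted p = 0.131 and 0.0974). Slco1a1 was the only gene called in CAR-deficient mice among these 8 and among the carriers, pumps and regulators that follow.

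Of 12 other Slc22 genes measured, Slc22a18 was higher by 0.33 (limma adjusted p = 0.0154) and Slc22a30 differed by -0.44 (0.041) in EtOH against control of wild-type mice. Of 11 other Slc16 genes, the monocarboxylate carrier Slc16a7 was higher by 0.52 (0.00601) and Slc16a6 differed by -0.49 (0.00959). Of 6 other Slc10 and Slc23 genes, 2 were lower, the ileal bile acid carrier Slc10a2 with a difference of -0.44 (0.00381) and Slc23a3, which was compressed. Of these probe sets 9 of 12, 6 of 11 and 4 of 6 were compressed in wild-type mice.

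Carriers that move substrates out of the cell were counted too. Of 14 efflux pumps and exporters, 2 were higher in EtOH than in control livers of wild-type mice, the basolateral conjugate pump Abcc3 by 0.54 (limma adjusted p = 0.00719) and the sterol exporter Abcg8 by 0.46 (0.0231), and 2 were lower, Abcg2 (-0.41, 0.00959) and the phospholipid flippase Atp8b1 (-0.41, 0.0321), beside 2.2% higher and 3.35% lower of all probe sets. In EA against control 6 of the 14 were higher and 2 lower, beside 6.06% higher and 8.15% lower of all probe sets, and in RSV against control 5 were higher and 2 lower, beside 9.07% and 10.7%. Only 2 of the 14 were compressed in wild-type mice, unlike most probe sets. A limma fit of the uncompressed probe sets alone called 51.7% of them in EA, 52.9% in RSV and 26.7% in EtOH against control, in either direction. The pumps were not counted in that fit, so its shares and their counts are at unlike thresholds. Whether the pumps differ from other uncompressed probe sets was not tested. Of 12 receptors and factors known to act on carrier genes, 2 were lower in EtOH against control, the hepatic forkhead factor Foxa3 (-0.56, 0.0133) and Nfe2l2, which encodes the oxidative stress factor Nrf2 (-0.50, 0.0296).

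The genes most like the 2 members called in EtOH against control were sought by Pearson r over the 16 wild-type arrays, among 2890 lead probe sets with an SD above 0.1, as a description of arrays that share their diets and with no test. Slco2a1 was nearest to H13 (r = 0.868), Cystm1 (0.82) and Psmb5 (0.81), and over the 12 arrays of CAR-deficient mice these r were 0.62, 0.571 and 0.614. Slc22a7 was nearest to Cyp2j6 (r = 0.877), the efflux pump Abcg2 (0.87) and the haem synthesis enzyme Alas2 (0.864), and in CAR-deficient mice these r were 0.65, 0.558 and 0.852.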

How the data were processed

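Affymetrix Mouse Genome arrays of 28 livers were used as deposited: the authors summarised the probes by DFW and deposited log2 values. The genotypes were treated as summarised apart, because their values lie on different scales. No further normalization was applied. Of 45101 probe sets, 64 controls were set aside, which left 45037 in wild-type mice and, with 26 blank there, 45011 in CAR-deficient mice. Probe sets were named from the platform annotation supplied with the series, and a gene was represented by its probe set of highest mean. The members and lists were chosen with earlier results of these data known. For each genotype limma 3.58.1 in R 4.3.3 (lmFit and eBayes, group means, 95% CI) compared the diets. P-values were adjusted by Benjamini-Hochberg across the whole array, the threshold was 0.05, and the fit was tested on simulated data. Of the lists, genes called in EtOH against control of wild-type mice were named, at most 4 per list, and Nr1i3 and Cyp2b10 always. The number of arrays, 3 or 4 per diet, limits the precision, and p-values measure the spread between mice. Promoters were read from RefSeq (GRCm38.p6), and figures and sequences were made with Python.

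The alternatives were quantile normalization, the rank product, a method that the study also used but after another normalization, run here on DFW values (50 permutations, FDR 0.05), probe sets above the median level, only the 2 diets compared, a replicate block, the probe set of largest SD, and leaving out each array. Residuals of mice with the same number in the titles correlated above 0.1 in every pair in only some comparisons. These were EA against control of wild-type mice (0.157 to 0.568, 4 pairs) and EtOH against control of CAR-deficient mice (0.288 to 0.41, 3 pairs). In other comparisons the correlations fell as low as -0.236 in wild-type mice and -0.566 in CAR-deficient mice. The titles do not say that the numbers pair mice, so the block is an alternative only. Wild-type EtOH replicate 5 has no mouse of its number on another diet and adds nothing to the block estimate.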

Additional observations from a re-analysis of the deposited data

Results flagged for a closer look

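Of 36 groups of 4 wild-type mice (9 carriers on 4 diets), 4 held a mouse farther from the others than Dixon's critical value for 4 samples at 95% allows, as the gap over the range, and chance flags about 1 in 20 groups. Slco1b2 read 12.648 in RSV replicate 2, and the nearest RSV mouse read 12.427. Slc10a1 read 12.772 in RSV replicate 4, with the nearest RSV mouse at 12.999, and 13.007 in control replicate 2, with the nearest control mouse at 12.868. Slco2b1 read 9.6283 in control replicate 2, with the nearest control mouse at 9.368. Without control replicate 2, Slco2b1 was higher in EA than in control livers by 0.65 (limma adjusted p = 0.00569). The part of these mice in the other values was not tested, and groups of 3 CAR-deficient mice were not examined in this way.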

How the results depend on the processing

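No called difference of a carrier changed its sign under any alternative run. Slco2b1 was called in EA against control under each of them. The calls of Slc22a7 and Slco2a1 in EtOH against control depended on the fit of all 4 diets and on single mice.

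By rank product, called members of the 9 were, in wild-type mice, 6 in EtOH against control (2 by limma), 4 in EA against EtOH (0), 5 in RSV against EtOH (0), 4 in EA against control (1), 5 in RSV against control (2) and 1 in EA against RSV (0), beside 5.62%, 5.6%, 4.39%, 8.5%, 8% and 3.32% of all probe sets and 38.1%, 38%, 29.8%, 57.7%, 54.3% and 22.6% of the uncompressed ones. In CAR-deficient mice, where limma called 0, they were 3 in EtOH against control, 2 in EA against EtOH, 2 in EA against control and 3 in RSV against control (1.86%, 0.555%, 2.89% and 2.08% of all probe sets). Quantile normalization gave 3 in EA against control and 4 in RSV against control of wild-type mice, where it called 53.7% and 55.5% of all probe sets in place of 14.2% and 19.7%, and left 2 in EtOH against control, where it called 33.8% in place of 5.55%. It also moved the split of calls in all wild-type comparisons but EA against EtOH (46.1% higher, 46.6% as deposited): 77.2% of calls were higher in EtOH than in control livers (39.6% as deposited), 60.7% in EA (42.7%) and 69.1% in RSV (46%) than in control livers, 85.2% in RSV than in EtOH livers (42.7%), and 16.7% of 6 calls in EA than in RSV livers (27.3% of 11), with the median difference over all probe sets at most 0.000341 in these comparisons. Probe sets above the median level gave 1 in EA against EtOH and 2 in EA against control of wild-type mice, and 1 in EtOH against control of CAR-deficient mice (7.14%, 28.2% and 0.72% of those tested). Only the 2 diets compared gave 0 in EtOH against control, 3 in EA against control and 0 in RSV against control of wild-type mice (1.26%, 14.5% and 12.1%). The uncompressed probe sets alone, an alternative chosen after seeing the data, gave in wild-type mice 1 in EA against EtOH, 2 in RSV against EtOH, 3 in EA against control and 4 in RSV against control, and in CAR-deficient mice 2 in EtOH against control (23.5%, 11%, 51.7%, 52.9% and 3.76% of those tested).

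With the replicate block, wild-type mice gave 0 called members in EtOH against control, where Slco2a1 had an adjusted p of 0.123 and Slc22a7 of 0.1, and 2 in EA against control, Slco2b1 and Slc22a5. In RSV against control of wild-type mice the block gave Slco2b1 and Slco1b2 (adjusted p = 0.0255) and lost Slc22a7 (0.0639). In EtOH against control of CAR-deficient mice the block called 12 probe sets in place of 155 and no member. The number of called members did not change with the block in the other comparisons.

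With each mouse left out in turn, wild-type mice gave 0 to 1 called members in EtOH against control, 0 to 1 in RSV against EtOH and 1 to 2 in RSV against control, and other comparisons kept their count. The single call of RSV against EtOH, Slco2b1, came without RSV replicate 4 (adjusted p = 0.0444). The probe set of largest SD changed the call of Slc16a10 alone, in RSV against control of wild-type mice. The scale of DFW limits the size of each difference, and most probe sets, compressed by it, carry no usable size.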
